A study of Mus musculus with 6 samples.

Results

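The negative limb of the circadian clock and its PAR bZIP outputs were examined in mouse liver RNA-Seq as 10 named genes: the Period genes Per1, Per2 and Per3, the cryptochromes Cry1 and Cry2, the PAR bZIP factors Dbp, Tef and Hlf, and the E-box repressors Ciart and Bhlhe41. They are a list of names, drawn up with earlier results of these data known, and all 10 were found by Ensembl identifier among the 56305 genes of the table. All 10 passed the filter on low values (3 or more livers with a normalized count of 20 or above), as did 15430 genes in all. The livers came from 3 WT and 3 Vps15LKO (AlbCre+;Vps15f/f) male mice of 5 weeks, fed ad libitum and taken at 1 time, ZT6, 6 h after lights on. Vps15 is the regulatory subunit of class 3 PI3K, a lipid kinase complex of vesicle traffic and autophagy. The deletion in Vps15LKO mice is chronic, and Cre is driven by the albumin promoter, a promoter of hepatocytes and their precursors. Which cells of the organ keep the gene was not tested. The alleles of the WT controls of this line are not given in the sources used here. The labels number the samples 1 to 3 in each genotype and do not name the animals, so p-values measure the spread between these samples.

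In the clock loop, the activators BMAL1 and CLOCK bind E-boxes and switch on Period and cryptochrome genes, whose proteins return to the nucleus and repress the same activators. DBP, TEF and HLF are transcription factors of the proline- and acidic amino acid-rich family that bind D-boxes and carry the rhythm to liver genes of detoxification and metabolism. CIART and BHLHE41 are further repressors of E-box transcription, and the genes for both are themselves driven from E-boxes.

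E-box letters near the start sites are shown first because the E-box is the motif that the activators bind. In RefSeq promoters of GRCm38.p6 (250 bases before to 50 bases after a start site), 9 of the 10 genes had an entry, with 11 promoters between them. Per2 had no entry. The E-box CACGTG, which reads the same on both strands, was present in 5 of the 9 genes (6 of 11 promoters), beside 7.15% of all 32851 promoters. Capitals mark the E-box in the next lines, which run 5′ to 3′ on the strand of the gene and stop at annotated exons.
Ciart: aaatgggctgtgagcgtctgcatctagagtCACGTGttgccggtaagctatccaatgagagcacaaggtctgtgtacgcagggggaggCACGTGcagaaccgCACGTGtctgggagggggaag
Bhlhe41: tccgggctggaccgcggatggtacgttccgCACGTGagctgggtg
Cry1: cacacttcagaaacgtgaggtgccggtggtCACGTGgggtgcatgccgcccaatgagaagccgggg
Per1: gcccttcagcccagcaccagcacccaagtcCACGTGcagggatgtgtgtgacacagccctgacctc
Tef: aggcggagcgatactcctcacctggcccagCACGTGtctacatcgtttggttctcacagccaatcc
The Ciart stretch (chr3:95882252-95882374, minus strand) lies upstream of the gene and holds 3 E-boxes, 116, 58 and 44 bases before the start site, and 0.594% of all promoters hold 2 or more. The Bhlhe41 (chr6:145865559-145865603, minus strand) and Cry1 (chr10:85185079-85185144, minus strand) stretches also lie upstream, with their E-boxes 153 and 60 bases before the start. The Per1 stretch (chr11:69098753-69098818, plus strand) and the Tef stretch (chr15:81811246-81811311, plus strand) lie in introns of longer transcripts, before internal start sites. The other Tef promoter has its E-box 127 bases before the start, within an annotated exon.

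No CACGTG was found in the windows of Per3, Cry2, Dbp or Hlf. Dbp is known for E-boxes within its introns, which these windows do not cover. The related E-box prime (CACGTT, or AACGTG on the other strand) was found in the windows of Cry2, at -166 from the start site, and Cry1, at -79, beside 4.68% of all promoters. Per3 instead held the D-box TTATGTAA, the motif bound by the PAR bZIP factors, at 2 places 205 and 158 bases before its start. Either strand of TTATGTAA or TTACGTAA was found in 1.06% of all promoters. In the Per3 stretch (chr4:151044786-151044900, minus strand, upstream of the gene) the capitals mark the D-boxes.
Per3: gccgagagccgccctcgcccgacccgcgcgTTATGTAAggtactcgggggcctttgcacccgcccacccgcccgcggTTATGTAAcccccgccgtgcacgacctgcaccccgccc
Hlf held the cyclic AMP response element TGACGTCA, found in 1.79% of all promoters. These matches are letters in a window and not measured binding.

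The values are read counts divided by 1 size factor for each library. The libraries held 16137093 to 18110223 reads on genes, but the factors were 0.742 to 0.801 in WT and 1.23 to 1.41 in Vps15LKO, so the choice of scaling bears on every level below. Scaling to total reads instead moved the median difference over the tested genes from -0.02 to 0.70 (log2), a shift of 0.72, and scaling to 3 of the study's qPCR reference genes (Eef1a1, Gapdh and Pnn, without 18S) moved it by 0.22. Pik3r4, which encodes Vps15, ranged from 460 to 573 in WT and from 341 to 362 in Vps15LKO livers (normalized counts). Its log2 fold change of -0.54 became 0.19 with total reads. The paper reports, in fibroblasts, that the recombined locus still gives a truncated Vps15. A count over the whole gene therefore need not measure the deletion. All 10 hepatocyte markers were lower in each Vps15LKO liver than in any WT liver, with a summed normalized count of 2960507 to 3393846 in WT and 831094 to 1262567 in Vps15LKO livers, and no marker of the 10 was at 0. Of the tested markers, 8 of 10 for macrophages, 10 of 10 for stellate cells and fibroblasts, 9 of 9 for cholangiocytes, 10 of 10 for proliferation and 6 of 8 for lymphocytes were called higher, beside 33.5% of all tested genes. Of these, 1 macrophage, 1 cholangiocyte, 2 proliferation and 3 lymphocyte markers were under 20 in every WT liver and so could pass the filter only by being high in Vps15LKO livers, and their calls support nothing here. Of the 10 endothelial markers, 5 were called lower (Stab2, Kdr, Clec4g, Tek and Oit3) and 5 higher, and 0 lower and 6 higher with total reads (limma).

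Of the 10 genes, 8 were lower in Vps15LKO liver (called where the adjusted p was under 0.05 and the fold was 1.2 or more), 0 were higher, and Per1 and Cry1 did not pass the test. All fold changes are differences of log2(normalized count + 1), Vps15LKO minus WT, tested with limma and adjusted over all tested genes, and their median was -1.25 over the 10 genes and -0.02 over all tested genes. Since all 10 differences were negative, 0 were higher at an unadjusted p under 0.05 as well, and edgeR and DESeq2 on the recovered reads each called 8 lower and 0 higher. The background was large, since 66.5% of the tested genes were called in either direction and 33.0% were called lower. Among genes with a mean level within the range of the 10, 35.7% were called lower. The same 8 genes had every Vps15LKO liver below every WT liver, as did 36.8% of the tested genes. With total-read scaling 6 of the 10 were called lower and 0 higher, beside 11.1% of the tested genes called lower. Those 6, Cry2, Dbp, Tef, Hlf, Ciart and Bhlhe41, kept the call in all 22 alternative settings.

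**Figure D1:**
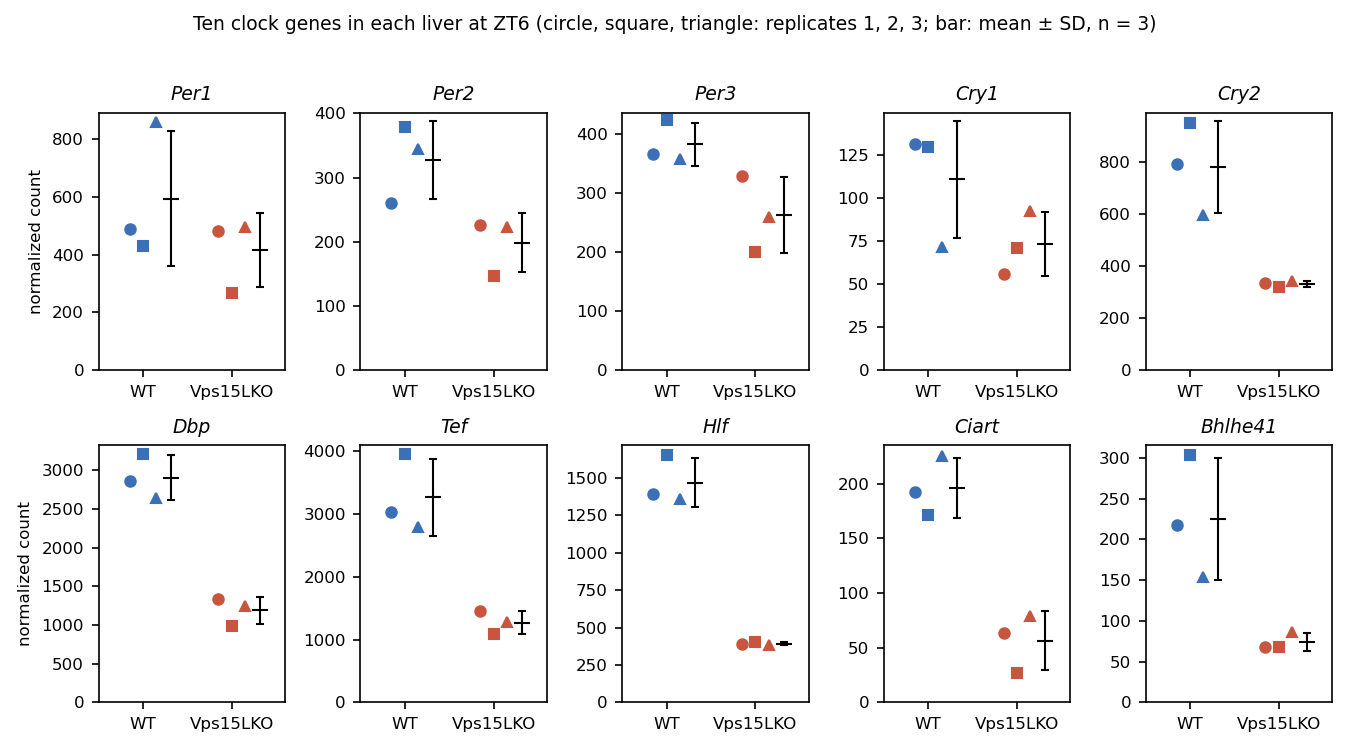
Normalized count (vertical axis, from 0) of each of the 10 genes in the 3 WT (blue) and 3 Vps15LKO (red) livers, with circle, square and triangle for replicates 1, 2 and 3 and black bars for the mean ± SD. The genotypes overlap for Per1 and Cry1 and are apart for the other 8 genes, and the Vps15LKO points of Hlf lie between 385 and 403.

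The PAR bZIP factors had the highest normalized counts per kb of exon among the 10 genes in WT liver, and each was lower in every Vps15LKO liver. Positions of genes are those of GENCODE M21 on GRCm38. Dbp (ENSMUSG00000059824, chr7:45705088-45710203, plus strand), whose transcript has one of the widest daily swings in liver, had normalized counts of 2861, 3214 and 2641 in WT livers, in the order of their numbers, and 1332, 991 and 1248 in Vps15LKO livers. The genotypes were far apart. Taken from the log2 fold change, Vps15LKO liver held 40.8% of the WT level (-1.29 ± 0.13 SE, adjusted p = 4.9e-05 in limma). Tef (ENSMUSG00000022389, chr15:81802421-81826863, plus strand), a close relative of Dbp, had 3043, 3956 and 2804 in WT and 1450, 1085 and 1285 in Vps15LKO livers. Its fall was of a like size (-1.35 ± 0.15 SE, adjusted p = 9.1e-05 in limma), and WT replicate 2 was the highest liver for both genes. Hlf (ENSMUSG00000003949, chr11:90336536-90390895, minus strand), the family member also known as a factor of blood stem cells, had 1395, 1655 and 1357 in WT and 391, 403 and 385 in Vps15LKO livers. Hlf fell to 26.9% of the WT level, a log2 fold change of -1.89 ± 0.10 SE (adjusted p = 1.9e-06 in limma). Only 4.10% of the tested genes had a lower value. With total reads the 3 genes were still called lower, at -0.57 for Dbp, -0.63 for Tef and -1.17 for Hlf.

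Ratios are of normalized counts + 1. Within a liver, such a ratio of 2 genes hardly depends on a factor that scales the whole library. Quantile normalization is not such a factor and can change it. The Dbp/Tef ratios overlapped between genotypes, with values of 0.812 to 0.942 in WT and 0.913 to 0.971 in Vps15LKO livers (difference of log2 ratios 0.06, exact permutation p = 0.60, two-sided). Relative to Hlf, both were higher in every Vps15LKO liver than in any WT liver. The Dbp/Hlf ratio was 2.05, 1.94 and 1.94 in WT and 3.40, 2.46 and 3.24 in Vps15LKO livers. The Tef/Hlf ratio rose from between 2.06 and 2.39 to between 2.69 and 3.70. Each of these differences had the smallest exact permutation p that 3 against 3 livers allow, 0.10 (two-sided), which is 0.225 after adjustment over the 45 pairs, so the design cannot pass 0.05.

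Ciart and Bhlhe41, the E-box repressors, were low in level, and both were called lower. Ciart (ENSMUSG00000038550, chr3:95878503-95882251, minus strand) had 192, 171 and 225 normalized counts in WT and 63.4, 26.7 and 79.2 in Vps15LKO livers. Vps15LKO replicate 2 lay well below the others, and the log2 fold change of -1.90 had the widest error of the 10 (± 0.35 SE, adjusted p = 0.0014 in limma). Bhlhe41 (ENSMUSG00000030256, chr6:145858243-145865558, minus strand), also called Dec2, had 218, 304 and 154 in WT and 68.0, 68.1 and 87.0 in Vps15LKO livers. Its values spread widely in WT and little in Vps15LKO liver, and its log2 fold change was -1.54 ± 0.24 SE (adjusted p = 0.00052 in limma). Bhlhe40, the paralog of Bhlhe41 and a repressor at the same sites, had 2583 to 3798 in WT and 2870 to 3279 in Vps15LKO livers and did not pass the test (-0.09, adjusted p = 0.64 in limma). It was called higher with total reads (0.64, adjusted p = 0.0025) and with quantile normalization (0.48, adjusted p = 0.016), and its sign also turned with reference genes (0.14) and under 2 other settings, whereas Bhlhe41 was called lower in all 22.

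Of the cryptochromes, Cry2 was called lower and Cry1 was not. Cry2 (ENSMUSG00000068742, chr2:92403646-92434043, minus strand) had 796, 951 and 597 normalized counts in WT and 335, 319 and 343 in Vps15LKO livers, with a log2 fold change of -1.21 ± 0.16 SE (adjusted p = 0.00020 in limma). Cry2 was narrow in Vps15LKO liver (SD 12.5) and broad in WT (SD 177). Cry1 (ENSMUSG00000020038, chr10:85131700-85185064, minus strand), the stronger repressor of the pair and the one that peaks later in the day, had 131, 130 and 71.4 in WT and 55.7, 71.3 and 92.7 in Vps15LKO livers. WT replicate 3 fell among the Vps15LKO values, and the difference of -0.57 ± 0.28 SE did not pass the test (adjusted p = 0.10 in limma, 95% interval -1.21 to 0.07). Without WT replicate 3 it was -0.86 and passed (adjusted p = 0.010 in limma), and with total reads its sign turned, to 0.15. The Cry1/Cry2 ratio was 0.121 to 0.166 in WT and 0.169 to 0.272 in Vps15LKO livers, with no overlap (exact permutation p = 0.10, two-sided, the smallest possible, adjusted 0.225), so a difference between the 2 genes did not pass a test.

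The log2 fold changes of the Period genes were closer to 0 than those of the PAR bZIP factors. Per2 (ENSMUSG00000055866, chr1:91415982-91459324, minus strand) had 260, 378 and 344 normalized counts in WT and 227, 146 and 223 in Vps15LKO livers. The groups were apart by a narrow gap, and the log2 fold change was -0.73 ± 0.20 SE (adjusted p = 0.012 in limma). Per3 (ENSMUSG00000028957, chr4:151003652-151044665, minus strand) had 366, 425 and 359 in WT and 329, 201 and 259 in Vps15LKO livers, again with a narrow gap, and a log2 fold change of -0.57 ± 0.18 SE (adjusted p = 0.019 in limma). Per1 (ENSMUSG00000020893, chr11:69095217-69109960, plus strand), an early responder to hormonal signals, had 488, 431 and 860 in WT and 482, 268 and 497 in Vps15LKO livers. Among the Vps15LKO livers only replicate 2 lay below all WT livers, and -0.50 ± 0.30 SE did not pass the test (adjusted p = 0.17 in limma, 95% interval -1.19 to 0.19). The Per1 value was -0.20 without WT replicate 3 and -0.21 without Vps15LKO replicate 2.

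As a share of all gene reads, the Period genes and Cry1 did not separate the genotypes. Per2 took 11.0, 16.7 and 15.8 RPM (its reads scaled to the gene reads of the library) in WT and 16.6, 9.95 and 17.5 in Vps15LKO libraries, and its log2 fold change with total reads was -0.01 (95% interval -0.53 to 0.52). Per3 took 15.5 to 18.8 RPM in WT and 13.7 to 24.0 in Vps15LKO, and its sign turned to 0.16. Per1 turned to 0.23, with 19.1 to 39.5 and 18.3 to 38.9 RPM. Hlf, by contrast, took 59.1, 73.2 and 62.4 in WT and 28.5, 27.5 and 30.1 in Vps15LKO libraries, and Dbp took 121 to 142 and 67.6 to 97.8. Per2 also lost its call with reference-gene scaling (-0.50, adjusted p = 0.069 in limma) and without WT replicate 2 (adjusted p = 0.051), and Per3 lost its call under the same settings (adjusted p = 0.19 and 0.071) and with upper-quartile scaling (-0.44, adjusted p = 0.060).

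**Figure D2:**
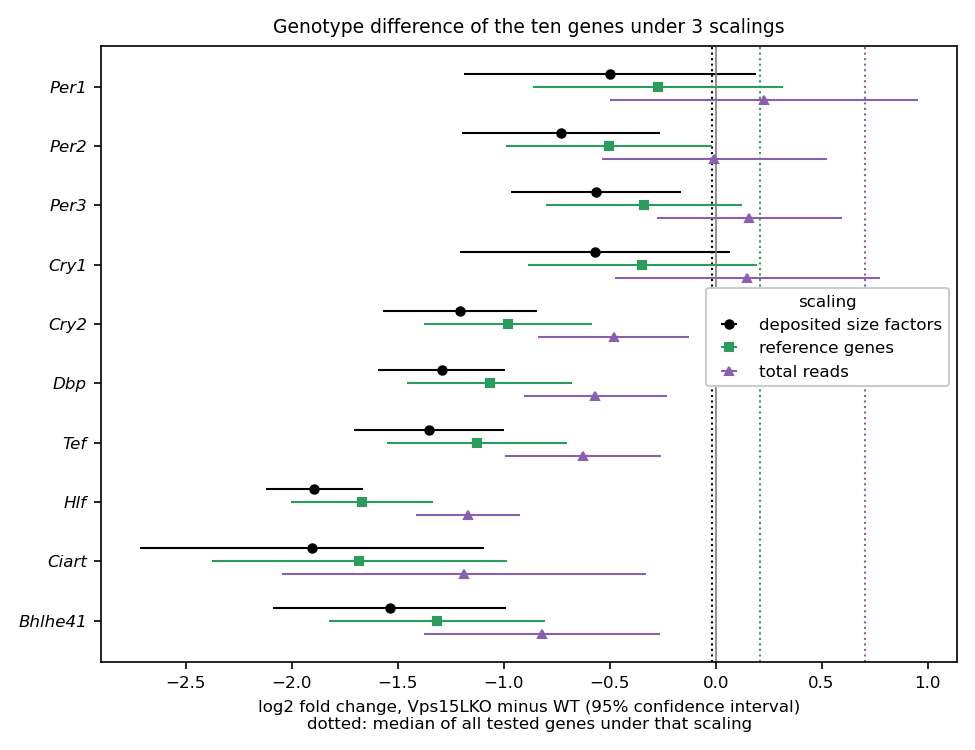
Log2 fold change of the 10 genes (horizontal axis, Vps15LKO minus WT, bars for the 95% confidence interval) with the deposited size factors (black circles), reference-gene scaling (green squares) and total-read scaling (purple triangles). Dotted lines mark the medians of all tested genes, -0.02, 0.21 and 0.70, and the intervals of Cry2, Dbp, Tef, Hlf, Ciart and Bhlhe41 stay below 0 under all 3.

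A scaling factor shifts every gene and the median of the tested genes alike, so the distance between them is nearly fixed by construction. With the deposited factors this distance, on the log2 scale, was -0.48 for Per1, -0.71 for Per2, -0.55 for Per3 and -0.55 for Cry1. It was -1.19 for Cry2, -1.28 for Dbp, -1.34 for Tef, -1.52 for Bhlhe41, -1.88 for Hlf and -1.89 for Ciart. Quantile normalization, which reshapes the values of each library, moved these distances by up to 0.52, in Tef. It called 9 of the 10 lower, with Cry1 added (-1.05, adjusted p = 0.0082 in limma). Under it the log2 fold changes of Dbp (-0.89) and Tef (-0.92) lay above that of Cry1 and near that of Per2 (-0.89). Those of Cry2, Hlf, Ciart and Bhlhe41 stayed below both Cry1 and Per2.

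Of the 10 hepatocyte markers 9 were called lower, all but Alb, and the log2 fold changes of the 10 had a median of -1.92 and ran from -3.47 to -1.35 (Apoa1). All 10 clock genes had a log2 fold change above that median marker, and 6 of the 10 (Per1, Per2, Per3, Cry1, Cry2 and Dbp) lay above every marker. In bulk liver, fewer hepatocytes and less of a transcript in each hepatocyte cannot be told apart. The part of the hepatocyte markers in these falls was not tested.

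Over the 45 pairs of the 10 genes, 20 ratios (44.4%) did not overlap between genotypes, beside 75.4% of all pairs of tested genes. Each of the 20 had p = 0.10 in the exact permutation test (two-sided) and 0.225 after adjustment. Hlf was lower relative to 7 of the 9 other genes without overlap, and Ciart relative to 4. Per3 was higher relative to 6 of 9, and Per2 and Cry1 each relative to 4. The Per3/Dbp ratio was even within a genotype, at 0.128, 0.132 and 0.136 in WT and 0.248, 0.204 and 0.208 in Vps15LKO livers. The Per3/Hlf ratio went from 0.263, 0.257 and 0.265 to values between 0.50 and 0.842. The Hlf/Ciart ratio ran from 6.01 to 9.62 in WT and from 4.81 to 14.6 in Vps15LKO livers, a spread that does not show their falls to be alike (difference of log2 ratios 0.01, exact permutation p = 0.90, two-sided).

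**Figure D3:**
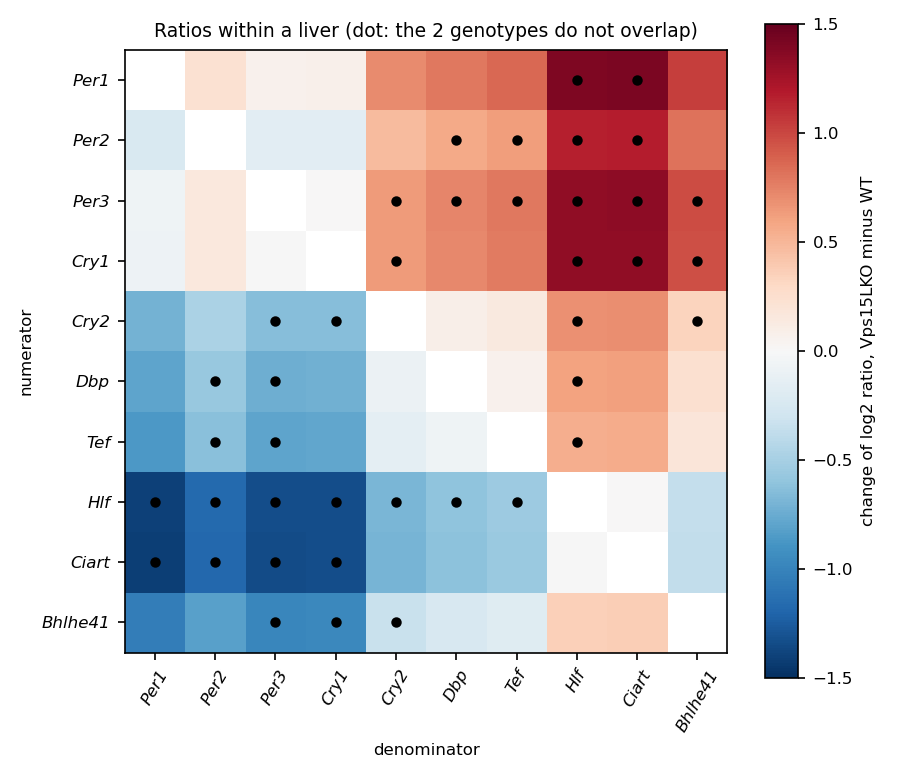
Change of the log2 ratio of 2 genes within a liver, Vps15LKO minus WT, with the deposited size factors. Numerators are on the vertical axis and denominators on the horizontal axis. Colours run from blue (lower) to red (higher), with a dot where the genotypes do not overlap. The upper right block is red, for Per1, Per2, Per3 and Cry1 as numerators of the other 6 genes, with the darkest cells against Hlf and Ciart, and 20 of the 45 pairs have a dot.

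Divided by exon length, the order of levels changed between genotypes. In WT liver it ran from Dbp (971 ± 96.6 normalized counts per kb, SD, n = 3) through Tef (415), Hlf (220), Cry2 (124), Per1 (105), Ciart (86.8), Per2 (55.9), Per3 (39.9) and Bhlhe41 (33.5) to Cry1 (33.2), a description with no test. Neighbours overlapped from Cry2 to Per1, Per1 to Ciart, Per3 to Bhlhe41 and Bhlhe41 to Cry1. In Vps15LKO liver Dbp (398 ± 59.3 normalized counts per kb, SD, n = 3) and Tef (162) stayed first, while Per1 (73.8) stood in place 3, overlapping Hlf (58.8). Cry2 (52.5) and Per2 (33.9) followed Hlf, and Ciart (25.0) stood behind Per3 (27.4), with overlap. Part of this order depends on the length used. Over the longest transcript, Per3 (63.9) stood above Per2 (56.1) in WT, and in Vps15LKO liver Cry2 (83.5) stood above Hlf (69.6) and Per3 (43.8) above Per2 (34.0).

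The median coefficient of variation over the 10 was 18.6% in WT and 18.9% in Vps15LKO, beside 12.2% and 9.91% over all tested genes, and 7 of the 10 lay above that median in WT and 8 in Vps15LKO. Hlf was below it in both genotypes (11.0% and 2.32%). WT replicate 2 was the highest WT liver for 7 of the 10 genes, and WT replicate 3 the lowest for 7, with Per1 and Ciart as its 2 highest. Vps15LKO replicate 2 was the lowest of its genotype for 7, among them all 3 Period genes, Dbp, Tef and Ciart. Arntl, which encodes BMAL1 and cycles opposite to Dbp, was lowest in WT replicate 2 (38.7 normalized counts, beside 118 and 66.1) and highest among Vps15LKO livers in replicate 2 (126, beside 84.0 and 96.9). WT replicate 3, the lowest WT liver for Dbp, Tef and Hlf, was not the highest for Arntl. All 6 livers carry the same time label.

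The genes with the most similar pattern were found by the root mean square difference of centred log2 values over the 6 livers, among 11248 genes with a mean of at least 100. Per3 was closest to Rsrc1 (0.088) and Nudt4 (0.104). Cry2 was closest to Nr6a1 (0.093), Got1 (0.096) and Srebf1. Hlf was closest to Cps1 (0.101), a urea cycle enzyme of hepatocytes and 1 of the 10 markers above, and to Pdcd4 (0.103). Fzd8 was among the 3 closest to both Tef (0.152) and Bhlhe41 (0.130). Ciart (0.285, Zfp970) and Per1 (0.212, Fbxo36) had the least close partners. The 10 genes themselves were left out of the search.

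Some of the 10 genes share exonic sequence with a gene on the opposite strand, and the sources do not say whether reads were counted by strand. Sphk2 shares 539 bases with Dbp, 18.0% of the Dbp exons, and went from a mean of 2604 to 1239 normalized counts. Gm43909 shares 1280 bases with Bhlhe41, 19.0% of its exons, and went from 67.6 to 20.8. Smaller overlaps were 4.67% of the exons of Cry2 (D930015M05Rik) and 2.45% of those of Tef (Gm17597). If they were not counted by strand, reads from the shared stretches cannot be assigned to either gene.

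A further 50 genes were listed for the clock, its outputs and its glucocorticoid input. Of these, 47 were tested, 21 were called lower and 10 higher, beside 33.0% lower and 33.5% higher over all tested genes. With total reads these counts were 12 lower and 24 higher, beside 11.1% and 66.7%. The lists below are short, and their counts are read against the same shares. The loop list (activators and nuclear receptors) had 5 of 7 lower and 1 higher, beside 33.0% and 33.5% of all tested genes, and 2 lower and 2 higher with total reads. Clock, the partner of BMAL1, ranged from 887 to 964 in WT and from 419 to 571 in Vps15LKO livers (normalized counts, log2 fold change -0.98), a call that total-read scaling ended (-0.25, adjusted p = 0.077 in limma). The gene counted as higher was Npas2, which can stand in for CLOCK, with 5.30 to 9.44 in WT and 24.0 to 53.5 in Vps15LKO livers (1.92). It passed the filter through the Vps15LKO livers alone, so its call was favoured by the filter, and a filter on every liver left it untested. Quantile normalization ended the Npas2 call (0.63, adjusted p = 0.22 in limma). Arntl did not pass the test (0.58, adjusted p = 0.19 in limma), and it did with total reads (1.30, adjusted p = 0.0058), with reference genes (0.80, adjusted p = 0.035) and without WT replicate 1 (0.98, adjusted p = 0.020). Without WT replicate 2 the Arntl value was 0.19. Nr1d1, the repressor of Arntl and a target of BMAL1, had 5023 to 6893 in WT and 2125 to 2597 in Vps15LKO livers (-1.35).

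The kinases, ligases and partners of Period and cryptochrome proteins had 4 of 14 lower and 4 higher, near the 33.0% and 33.5% of all tested genes, and 1 lower and 11 higher with total reads. Csnk1e, which encodes casein kinase 1 epsilon, a kinase that marks Period proteins for degradation, ranged from 135 to 179 in WT and from 516 to 666 in Vps15LKO livers (normalized counts, log2 fold change 1.86 ± 0.15 SE, adjusted p = 1.3e-05 in limma). Its relative Csnk1d rose by less, from 1143 to 1285 up to 1566 to 1615 (0.36). Usp2, a deubiquitinase with a strong daily rhythm, had 487 to 893 in WT and 151 to 258 in Vps15LKO (-1.56). Cipc, which encodes an inhibitor of CLOCK, fell by 0.52 on the log2 scale with the deposited factors and turned to 0.20 with total reads. Nfil3, whose protein competes with the PAR bZIP factors at D-boxes, had 267 to 469 in WT and 132 to 212 in Vps15LKO livers (-1.01), a call that total-read scaling ended (-0.29, adjusted p = 0.23 in limma).

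Of 8 other E-box outputs in liver, 4 were lower, beside 33.0% of all tested genes, and the other 4 did not pass the test. With total reads 4 were lower and 3 higher. Upp2, a uridine phosphorylase, went from 9497 to 13217 normalized counts down to 677 to 1008 (-3.86). Gys2, the liver glycogen synthase, fell by 1.83 on the log2 scale, and Lipg, an endothelial lipase, by 2.68. Usp2 stands in this list too. The 4 that did not pass were Wee1, Nampt, Por and Tspan4.

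Of the genes known as PAR bZIP targets, 3 of 8 tested were lower and 3 higher, again near the 33.0% and 33.5% of all tested genes, and 2 lower and 4 higher with total reads. Nr1i3, which encodes the xenobiotic receptor CAR, went from 2887 to 4795 normalized counts in WT to 683 to 1075 in Vps15LKO livers (-2.13). Cyp7a1, the rate-limiting enzyme of bile acid synthesis, had 1382 to 2846 in WT and 543 to 648 in Vps15LKO livers (-1.77). Pdxk, the pyridoxal kinase, fell by 0.75 on the log2 scale, a call that total-read scaling ended (-0.02). On the other side, Cyp2a4 went from 325 to 363 up to 12222 to 19146 (5.46), and Cyp2a5 from 11182 to 31106 up to 46434 to 53495 (1.28). Cyp2a4 and Cyp2a5 are near-identical copies that can share reads, so how the rise divides between them is uncertain. Abcb1a, a drug efflux pump, rose from 66.1 to 132 up to 422 to 582 (2.45).

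Glucocorticoids are a second input to Per1 and Per2, and 5 of 10 genes known to respond to them were lower and 2 higher, beside 33.0% and 33.5% of all tested genes, and 4 lower and 3 higher with total reads. Klf9 fell by 2.26 on the log2 scale, Tsc22d3 by 1.69 and the hepatocyte enzyme gene Tat by 2.65, and Pck1 was lowest (-3.03). Sgk1 (1.11) and Ddit4 (1.87) were higher, and Fkbp5, Zbtb16 and Dusp1 did not pass the test. The receptor gene Nr3c1 went from 1778 to 2064 normalized counts down to 1008 to 1188 with the deposited factors (-0.75), and was at -0.02 with total reads.

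**Figure D4:**
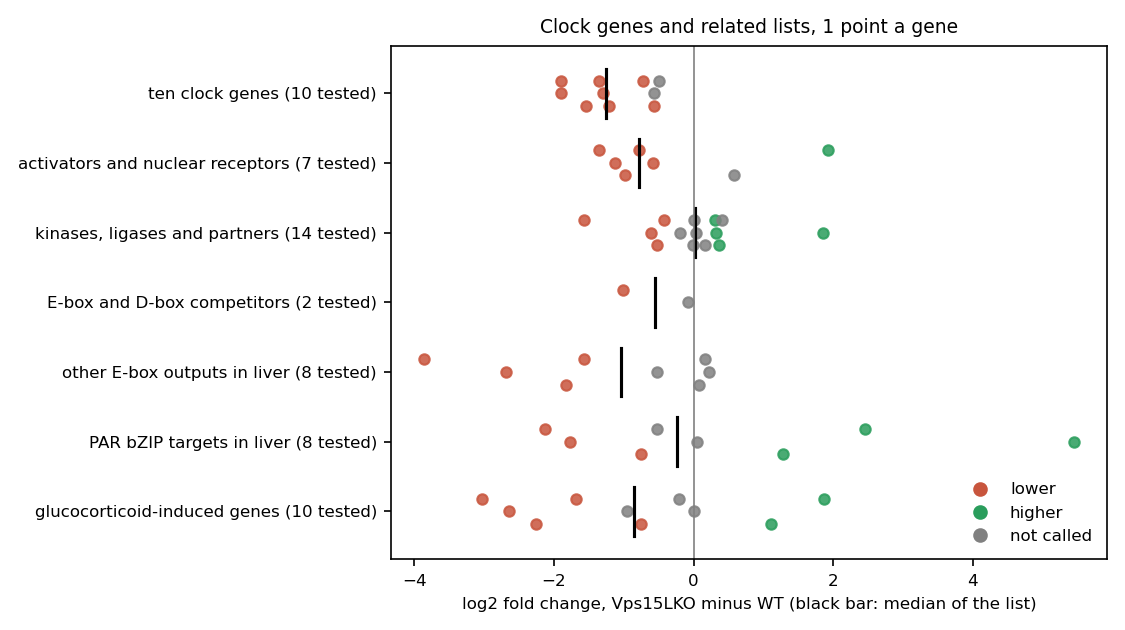
Log2 fold change (horizontal axis, Vps15LKO minus WT, deposited size factors) of the 10 clock genes and of the tested genes of the 6 further lists, 1 point a gene, red for called lower, green for called higher and grey for not called, with a black bar at the median. The 10 clock genes lie between -1.90 and -0.50, while the kinases, ligases and partners center on 0.02 and the PAR bZIP targets run from -2.13 to 5.46.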

How the data were processed

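Liver RNA-Seq of 3 WT and 3 Vps15LKO mice was taken from the table that the authors deposited. The authors used SOAPnuke to filter reads, HISAT2 to map them to GRCm38, featureCounts to count them by gene and DESeq2 to scale each library by 1 size factor; tool versions and the strand setting are not given in the sources used here. The deposited values are thus a signal, the normalized count, and 100% of them were whole multiples of 1 read (relative tolerance 0.01), so reads were recovered (16137093 to 18110223 per library). A count of 3 reads was the floor. Precision was set by the spread between livers, which includes counting error. No 2 libraries were copies (chi-square per gene 15.5 to 41.0 within genotypes). GENCODE M21 matched 55227 of 56305 genes.

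Genes with a normalized count of 20 or more in 3 or more livers were compared as log2(normalized count + 1) with limma 3.58.1 (trend) in R 4.3.3, without covariates, with Benjamini-Hochberg adjustment. The + 1 understates changes of low genes. Calls required a fold of 1.2 or more with an adjusted p under 0.05. Alternatives were pseudocounts of 0.1 and 10, other filters, scalings and thresholds, a fit with no trend, limma voom, DESeq2 1.42.0 and edgeR 4.0.16 on recovered reads, each liver left out, and a replicate block. The comparison was tested on simulated data. On recovered reads edgeR called 5150 genes lower and 5170 higher.

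The 10 genes and all lists were chosen with earlier results of these data known. Genes named are the 10, Pik3r4, genes of the lists, the closest patterns, and genes sharing exons. Tables and plots used Python 3.11.15, numpy 2.4.6, pandas 2.3.3 and matplotlib 3.10.9.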

Additional observations from a re-analysis of the deposited data

How the results depend on the processing

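Across the 22 alternatives, 6 to 9 of the 10 genes were called lower and 0 higher. Scaling to total reads moved the counts over all tested genes and over the further listed genes most. It gave 1712 genes lower and 10299 higher, beside 5099 and 5163, and 12 and 24 of the further listed genes, beside 21 and 10. Reference-gene scaling gave 3208 genes lower. Signs turned with total reads for Per1 (0.23), Per3 (0.16), Cry1 (0.15), Pik3r4 (0.19), Cipc (0.20) and Bhlhe40 (0.64). Bhlhe40 also turned with upper-quartile scaling (0.038), reference genes (0.14) and quantile normalization (0.48), and ranged from -0.26 (without WT replicate 3) to 0.018 (without WT replicate 1) with 1 liver left out. Levels per kb over the longest transcript were higher than over all exons for all 10 genes, and in WT moved by more than 1 SD for Dbp (1582), Tef (742), Hlf (260), Cry2 (196), Ciart (101) and Per3 (63.9).

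Leaving out 1 liver at a time gave 6 to 9 of the 10 genes lower, 6 without WT replicate 2 and 9 without WT replicate 3. The replicate numbers did not pair the samples, since same-numbered samples had correlations of -0.0099, -0.0114 and 0.0485 in their deviations. With the replicate block 9 of the 10 genes were called lower, Per1 included (-0.50, adjusted p = 0.028 in limma), 4983 genes were lower and 5065 higher over all. Depth limits Ciart and Cry1 most, the lowest of the 10. A single time point gives no phase or amplitude.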
